A study of Mus musculus with 8 samples.

Results

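Hsd17b11, Ugt2b36 and Ugt2b38 encode enzymes that inactivate steroids and similar lipids. They are 3 of the 9074 genes that could be named on the array, and 4 of its 20749 elements belong to them: clones MG-6-67i6 and s1-Dhrs8 for Hsd17b11, MG-11-1e5 for Ugt2b36 and MG-12-25g18 for Ugt2b38. The platform annotation names 3 of these elements. MG-11-1e5 has no platform symbol and is called Ugt2b36 after the study's own gene table. The 3 genes were selected on their low ratios in the Umod C93F kidneys. Every C93F value of theirs is therefore a description without a test, and the Umod A227T kidneys were used for tests. Earlier results of these data were known when the genes were chosen, so the A227T tests are not wholly independent of that choice.

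The study asked which transcripts change in kidneys with uromodulin-associated kidney disease. RNA from whole kidneys was compared on spotted two-colour cDNA arrays: 4 males homozygous for Umod A227T and 4 males heterozygous for Umod C93F, each against a pool of wild-type RNA from its own line. Both lines carry point mutations from chemical (ENU) mutagenesis in every cell and were kept on the C3HeB/FeJ background. A mouse has 2 arrays, one for each dye orientation, and the series has 16 arrays. According to the sample labels the animals were aged 19 (A227T) or 39 (C93F), with no unit stated, and a pool held RNA of 6 control animals. The methods give 4 wild-type littermates instead, and somewhat lower ages in weeks. A pool is 1 control sample, so the spread between wild-type mice does not enter any test. The lines also differ in age, zygosity, pool and the arrays used, which cannot be told apart. In whole kidney, fewer cells of a type and less RNA per cell cannot be told apart either.

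Hsd17b11, earlier called Dhrs8, is a short-chain dehydrogenase that oxidises the hydroxyl group at the 17-beta position of androgen metabolites and is found on lipid droplets. Ugt2b36 and Ugt2b38 are UDP-glucuronosyltransferases of the endoplasmic reticulum membrane. Enzymes of this family transfer glucuronic acid from UDP-glucuronate to steroids, bile acids and drugs, which makes them water soluble for excretion, and in the kidney this takes place mainly in tubule epithelium.

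All 3 genes lie on the minus strand of chromosome 5 in GRCm38.p6. Ugt2b36 spans chr5:87065927-87092555 and Ugt2b38 spans chr5:87409939-87424203, 317.4 kb apart within the Ugt2 gene cluster with 3 other Ugt2 genes between them. Hsd17b11 spans chr5:103989765-104021796. The part of each transcript that a clone covers was not used here, and a cDNA clone of one Ugt2b gene can bind transcripts of closely related Ugt2b genes, so the identity of the Ugt2b signals is uncertain.

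Because the 2 Ugt2b genes belong to one cluster and both were low in C93F, the 120 bases before each RefSeq start (GRCm38.p6, read 5′ to 3′ on the gene's strand) are shown for comparison. In the Ugt2b sequences the first capitals mark GTTA and TAAC with 5 bases between them and the second a run that both share. In Hsd17b11 the capitals mark CCAAT.
Ugt2b36, chr5:87092556-87092675: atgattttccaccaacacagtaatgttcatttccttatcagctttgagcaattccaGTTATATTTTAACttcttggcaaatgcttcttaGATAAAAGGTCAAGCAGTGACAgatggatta
Ugt2b38, chr5:87424204-87424323: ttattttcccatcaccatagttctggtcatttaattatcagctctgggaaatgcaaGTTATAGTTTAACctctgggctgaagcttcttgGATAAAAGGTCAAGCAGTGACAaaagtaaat
Hsd17b11, chr5:104021797-104021916: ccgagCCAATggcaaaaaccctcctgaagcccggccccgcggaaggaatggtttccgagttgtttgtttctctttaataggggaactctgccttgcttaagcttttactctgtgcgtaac

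The shared run is 22 bases long and lies 31 to 10 bases before the start in both genes. It was found in 4 of the 32851 promoters of the table, those of Ugt2b36, Ugt2b38, and, without a named element here, Ugt2b5 and Ugt2b37. It contains AGGTCA, the half-site that many nuclear receptors recognise, which 14.0% of all promoters hold within 250 bases before the start on either strand. GTTA followed after 5 bases by TAAC, the ends of the palindrome that HNF1 factors recognise, begins 64 bases before the start in both Ugt2b genes and occurs in 0.307% of all promoters. This motif was noticed in the Ugt2b sequences before it was counted. Hsd17b11 holds neither motif within its 250 bases and has a CCAAT box, as do 33.8% of promoters. The palindromic androgen response element, AGAACA followed after 3 bases by TGTTCT, was in none of the 3 and in 0.00913% of all promoters. So rare a sequence would be absent from nearly any 3 promoters, so its absence says nothing of androgen response. A match is a description of letters, not a binding site.

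Depth on arrays is signal over background, and an element was tested in a line when, on both arrays of 3 or more mice, 1 or both channels reached 2 times the background around the spot. This held for 9219 elements in A227T and 3341 in C93F, whose arrays were dimmer: 56.6% to 73.7% of positions passed per array in A227T and 15.3% to 42.3% in C93F. Calls needed a Benjamini-Hochberg adjusted p from limma under 0.10 over all tested elements and a fold over 1.4. In A227T, 1.01% of tested elements were called lower and 0.803% higher. In C93F, 1.02% were called lower and 0.0299% higher. By adjusted p alone, 4.52% were lower and 6.24% higher in A227T, and 14.7% lower and 9.31% higher in C93F. The split of A227T calls depended on scaling: 93 lower and 74 higher with loess, 59 and 142 with median centring, and 106 and 139 in the authors' processed ratios. No label ties a dye to the mutant RNA. Ratios are given as mutant over pool, a direction taken from the methods, which define fold change that way round, from the sign of the authors' processed values and from heat map legends. Since no source names the dyes, it is likely and not settled. If the scan names were taken at face value, all signs below would be opposite.

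Correlations between arrays showed how far the dye swap matters. After turning, arrays of A227T mice with the same dye orientation correlated at 0.28 to 0.58 and arrays of opposite orientation at -0.11 to 0.18, over 6024 elements. In C93F the same ranges were 0.65 to 0.82 and -0.32 to -0.06 over 1949 elements. A dye effect of this kind cancels in the mean of the 2 arrays of a mouse, which is the value used for each mouse. As checks, Umod itself was at -0.07 ± 0.09 in A227T (0.072 with median centring) and -0.32 ± 0.13 in C93F, and Scd1, a fatty acid desaturase, at 1.09 ± 0.25 and 0.92 ± 0.13 (log2, mean ± SD, n = 4 mice each). Point mutations need not change the amount of a transcript, so Umod does not check the labels.

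Ugt2b38 was measured in C93F and hardly at all in A227T. In A227T kidneys its element, MG-12-25g18, stayed near background. Its foreground reached at most 3.86 times the background in the mutant channel and 6.39 times in the pool channel, and 6 of 8 arrays had the spot marked as not found. Only mouse 3 passed on both arrays, with foregrounds of 2.86 and 3.86 times background in the mutant channel and 2.86 and 6.39 in the pool channel. Ugt2b38 was therefore not tested in A227T and no fold is given. The log2 ratios computed from these spots were 0.02, 0.09, -0.52 and -0.16 in mice 1 to 4, and those of mice 1, 2 and 4 compare background with background.

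In C93F kidneys the log2 ratio of mutant over pool of Ugt2b38 was -1.08, -1.01, -1.28 and -1.22 in mice 1 to 4, a mean of -1.15 ± 0.12 (SD, n = 4), which is 2.21-fold lower. The numbers of C93F mice follow the scans, in which mice 1 and 2 appear exchanged against the authors' processed columns, and means are not affected. All 4 mice and all 8 arrays were lower than the pool. The mutant channel was at 8.59 to 17.7 times the local background and the pool channel at 20.6 to 40.8 times. The low signal was found in the wild-type pool as much as in the mutants: the median ratio to background was 1.08 in A227T mutants and 1.08 in their pool, against 12.9 in C93F mutants and 28.4 in their pool. Line, age and the arrays used for each line cannot be told apart here. Whether the spot itself failed on A227T arrays was not tested.

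**Figure D1:**
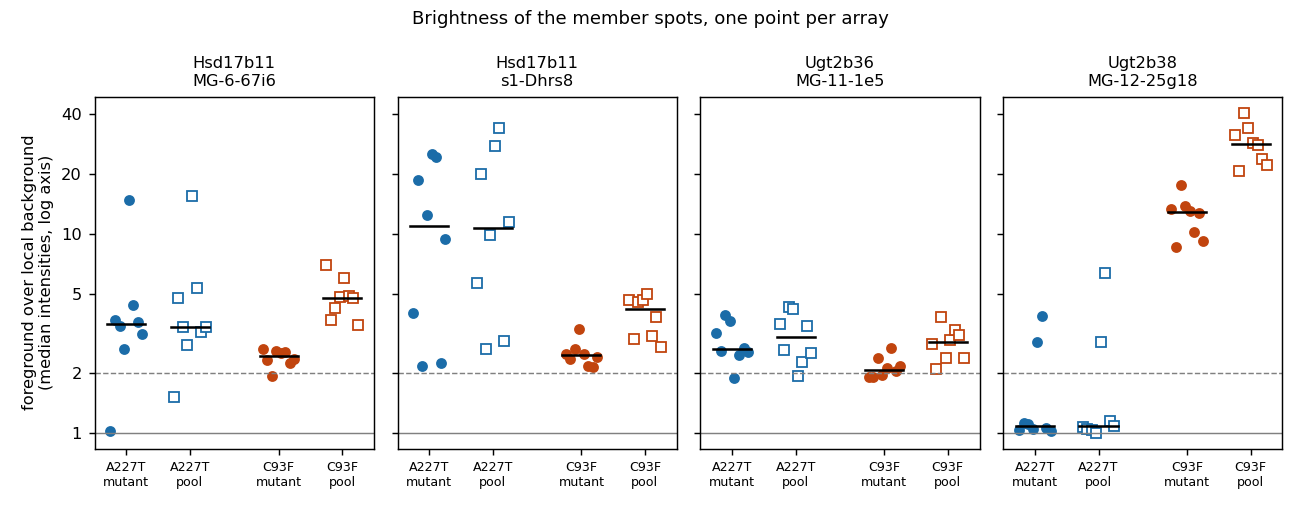
Foreground over local background (median intensities, log axis) of each member element on the 8 arrays of each line, mutant channel as filled circles and pool channel as open squares. Black bars are medians and the dashed line is the limit of 2. Ugt2b38 sat near 1 in both channels of most A227T arrays, while its C93F spots lay between 8.59 and 40.8.

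Hsd17b11 was lower in the mutants of both lines on both of its elements. In A227T kidneys MG-6-67i6 stood at -1.16, -0.39, -0.65 and -0.25 in mice 1 to 4, with a mean of -0.61 ± 0.40 (SD, n = 4), a 1.53-fold lower level. This passed the test and the fold (limma SE 0.12, adjusted p 0.00868), as the 50th lowest of 9219 elements. All 4 mice were below 0, and mouse 1 lay far below the others. That mouse failed the background limit on 1 of its 2 arrays. There the spot was marked as not found, with foregrounds of 1.02 times background in the mutant channel and 1.52 times in the pool channel. Its log2 ratio was -1.11 on that array. The other array passed, at 3.68 times background in the mutant channel and 4.75 times in the pool channel, with a ratio of -1.21. Without mouse 1 the mean was -0.43 (1.35-fold, adjusted p 0.0287), below the fold threshold, so the call rests on 1 mouse.

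The second element, s1-Dhrs8, was brighter in A227T, with medians of 10.9 times background in the mutant channel and 10.7 in the pool channel, and passed in all 4 mice. Its log2 ratios were -0.61, -0.03, -0.69 and -0.44 in mice 1 to 4. Mouse 2 was close to the pool and the other 3 were lower. The mean of -0.44 ± 0.29 (SD, n = 4; 1.36-fold lower) passed the adjusted p (0.0189 in limma) and not the fold, and without mouse 2 it was -0.58, which would be called (adjusted p 0.00649).

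In C93F kidneys the Hsd17b11 mice lay close together. MG-6-67i6 was at -1.09, -1.25, -1.21 and -1.07 in mice 1 to 4, a mean of -1.15 ± 0.09 (SD, n = 4; 2.22-fold lower). The other element, s1-Dhrs8, was at -0.66, -0.69, -0.87 and -0.67, a mean of -0.72 ± 0.10 (SD, n = 4; 1.65-fold lower). No mouse of either element came near the pool. They ranked 2nd and 11th lowest of the 3341 elements tested, and Ugt2b38 ranked 3rd.

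The 2 elements agreed in sign in all 8 mice and differed in size. MG-6-67i6 minus s1-Dhrs8 was -0.55, -0.36, 0.04 and 0.19 in the A227T mice, with a mean of -0.17 ± 0.34 (SD, n = 4) and no common direction. In C93F the same difference was -0.42, -0.56, -0.34 and -0.39, a mean of -0.43 ± 0.09, so MG-6-67i6 was lower in each mouse. With the 3 mice whose spots passed, MG-6-67i6 averaged -0.43 in A227T, beside -0.44 for s1-Dhrs8 over 4 mice. In C93F both elements were dim, at medians of 2.43 and 2.45 times background in the mutant channels and 4.79 and 4.19 in the pool channels. At such levels the background correction moves the size of a ratio: local subtraction put the C93F means at -1.42 and -0.93, and no correction at -0.98 and -0.62. MG-6-67i6 remained the lower of the 2 under these settings and in the authors' processed ratios.

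Ugt2b36 was lower in C93F by the least of the 4 elements. In A227T kidneys MG-11-1e5 was at -0.49, -0.54, 0.02 and -0.45 in mice 1 to 4, so 3 of 4 mice were lower and mouse 3 was at the level of the pool. Mouse 3 did not pass the background limit on 1 array, where the mutant channel was at 1.88 and the pool channel at 1.94 times background. The mean was -0.36 ± 0.26 (SD, n = 4; 1.29-fold lower), past the adjusted p (0.0364 in limma) and short of the fold. Over the 3 mice that passed it was -0.49 (1.41-fold, adjusted p 0.00781), past both. In C93F kidneys the ratios were -0.44, -0.66, -0.49 and -0.56 in mice 1 to 4, a mean of -0.54 ± 0.10 (SD, n = 4). That is 1.45-fold lower, just inside the fold threshold of 1.4, and 26th lowest of 3341. Here too the spots were dim: the mutant channel reached 2 times background on 5 of 8 arrays and the pool channel on 8 of 8.

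**Figure D2:**
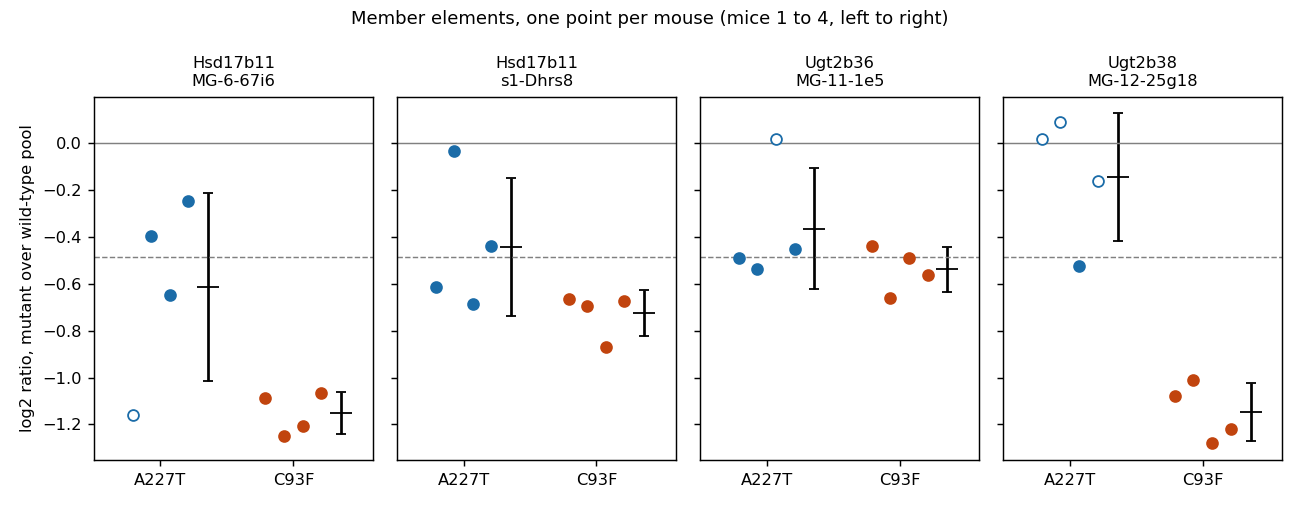
Log2 ratio of mutant over wild-type pool for each member element, 1 point per mouse, with the mean and SD beside each line. Open circles are mice whose spots did not pass the background on both arrays, the solid line is 0 and the dashed line is a 1.4-fold decrease. The A227T mice spread between -1.16 and 0.09, and the C93F mice lay between -1.28 and -0.44.

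Of the 3 member elements tested in A227T, 1 was called lower, beside 1.01% of all tested elements, and 3 of 3 were lower by adjusted p alone, beside 4.52%. All 4 member elements were called lower in C93F, beside 1.02%, which the choice of the genes had fixed. Without background correction Ugt2b36 (-0.44) fell short of the fold in C93F. Since only 3 elements of 2 genes were measured in A227T, these shares describe them and no more. For MG-6-67i6 and Ugt2b36 the spread among A227T mice was smaller over the mice whose spots passed. The SD of MG-6-67i6 was 0.40 over 4 mice and 0.20 over the 3 that passed, and that of Ugt2b36 was 0.26 over 4 mice and 0.042 over the 3 that passed, while s1-Dhrs8 passed in all 4 (SD 0.29). The median SD of all tested A227T elements was 0.15. In C93F, where all mice passed, the SDs of the 4 elements were 0.09 to 0.12, close to the median there (0.09). The A227T mean was higher than the C93F mean by 0.54 for MG-6-67i6, 0.28 for s1-Dhrs8 and 0.17 for Ugt2b36, and the mice of the lines overlapped in all 3. For MG-6-67i6 the overlap came from A227T mouse 1 alone, whose spot failed on 1 array and stood at -1.21 on the array that passed. The other 3 A227T mice (-0.65 to -0.25) lay above all C93F mice (-1.25 to -1.07). No test of the difference between lines was made, because the C93F values chose the genes.

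In A227T the pair of Hsd17b11 elements and Ugt2b36 were below the pool on 7 of 8 arrays each, and the arrays above 0 had the mutant in red. The dye orientation moved the C93F ratios in a way that differed by gene. MG-6-67i6 averaged -1.34 with the mutant in red and -0.97 with the mutant in green, and s1-Dhrs8 averaged -0.92 and -0.53. Ugt2b36 was likewise lower with the mutant in red, at -0.66 against -0.41 in green. Ugt2b38 went the other way, at -0.85 in red and -1.44 in green. On all 8 arrays each of these C93F elements was nevertheless below the pool.

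**Figure D3:**
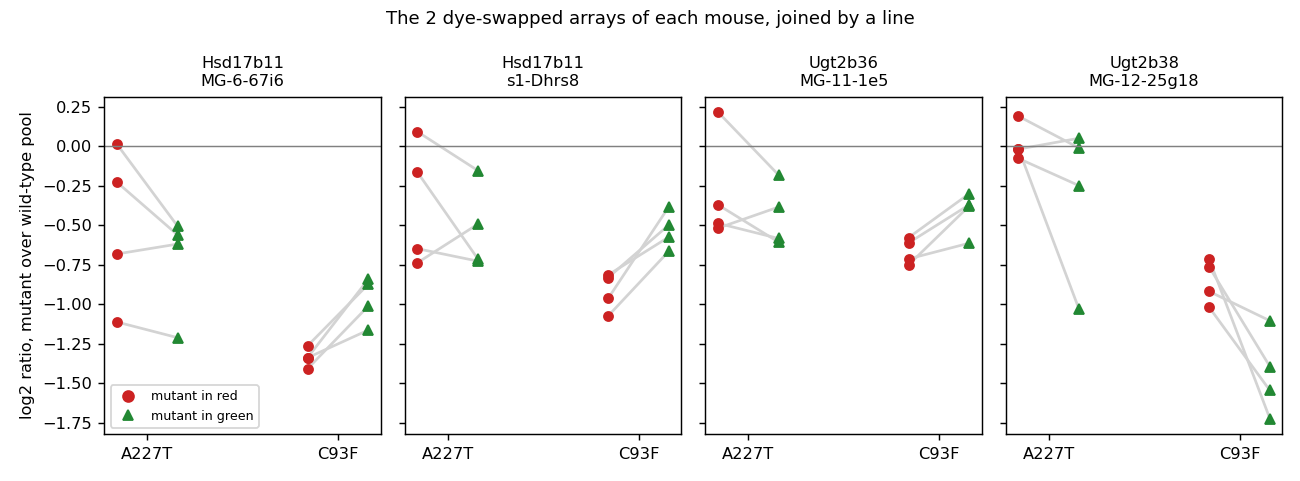
Log2 ratio of mutant over wild-type pool on the 2 dye-swapped arrays of each mouse, red circles with the mutant in red and green triangles with the mutant in green, joined by a line for each mouse. In every C93F mouse the red array was the lower of the pair for Hsd17b11 and Ugt2b36, and the green array for Ugt2b38.

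Few relatives of these genes were measurable under a gene name. The platform gives a symbol for 12743 of 20749 elements. Further names came only from the study's tables of changed genes, so relatives on unnamed elements would be missed. Of 11 other genes of the hydroxysteroid 17-beta dehydrogenase family, 6 are named on the array. In A227T 2 were tested and none was called: Hsd17b10, a mitochondrial dehydrogenase, was at 0.21 ± 0.08 (adjusted p 0.116), and Hsd17b4, the multifunctional enzyme of peroxisomal β-oxidation, at 0.04 ± 0.10 (adjusted p 0.841), with its second element at 0.20 ± 0.26. In C93F only Hsd17b4 was tested, at -0.11 ± 0.12 (adjusted p 0.171 in limma; SD, n = 4). Hsd17b2, Hsd17b3, Hsd17b6 and Hsd17b12 passed the background in too few mice to be tested in either line. Of 20 other UDP-glucuronosyltransferases only Ugt1a6a, which conjugates phenols, is named on the array. It was at 0.18 ± 0.26 in A227T (adjusted p 0.315) and at -0.24 ± 0.03 in C93F, lower in 4 of 4 mice (adjusted p 0.00387 in limma) but short of the fold.

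Of 13 genes for UDP-glucuronate supply, use and removal, 7 were tested in A227T, none passed the adjusted p, and their median log2 ratio was -0.00107, beside 0.00683 over all tested elements. In C93F 4 were tested and none was called, with a median of -0.22 beside 0.02 over all. By adjusted p alone 3 of these 4 were lower, beside 14.7% of all tested elements. They were Akr1a1, which reduces glucuronate (-0.30 ± 0.12), Miox, the inositol oxygenase of proximal tubules (-0.25 ± 0.10, also in the S1 and S2 marker list below), and Pgm1, which makes glucose 1-phosphate (-0.19 ± 0.10). Ugp2, which makes UDP-glucose, was at 4.31e-05 ± 0.10. Ugdh, the enzyme that forms UDP-glucuronate, was tested in A227T only, at 0.05 ± 0.38.

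Among 33 other enzymes that hydroxylate, reduce or sulfate steroids, 9 genes were tested in A227T and 8 in C93F, and none was called on its brightest element. Medians were 0.09 and 0.05. By adjusted p alone, Hsd11b2, which inactivates glucocorticoids in the distal nephron, was higher in A227T (0.41 ± 0.07, adjusted p 0.00548), as was Akr1c21 (0.34 ± 0.28, adjusted p 0.0552). Cyp7b1, an oxysterol and steroid hydroxylase, was lower in C93F (-0.35 ± 0.10, adjusted p 0.00124), while Cyp17a1 and Cyp27a1 were each at 0.17 (adjusted p 0.0395 and 0.0355). Hsd11b1, which reactivates glucocorticoids, has 2 elements that differed in A227T: the brighter was at -0.21 ± 0.16 (adjusted p 0.163) and the other at -0.51 ± 0.22 (adjusted p 0.00411), which was called. Here as in Hsd17b11, elements of one gene gave different sizes.

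Other short-chain and retinol dehydrogenases, the structural relatives of Hsd17b11, were not called in either line (0 of 12 tested in A227T, 0 of 8 in C93F), and by adjusted p alone 1 was lower and 1 higher in A227T, and 2 were lower and 1 higher in C93F. Among all tested elements the shares were 4.52% lower and 6.24% higher in A227T, and 14.7% lower and 9.31% higher in C93F. The list genes were Cbr4 (-0.26 ± 0.07) and Rdh16 (0.42 ± 0.09) in A227T, and Dhrs4 (-0.38 ± 0.12), Bdh2 (-0.29 ± 0.10) and Rdh16 (0.12 ± 0.05) in C93F (log2, SD, n = 4). Proteins of lipid droplets, where Hsd17b11 resides, were not called either (0 of 12 and 0 of 6). By adjusted p alone G0s2, an inhibitor of lipolysis, was higher in A227T (0.37 ± 0.33) and Plin2, a droplet coat protein, in C93F (0.15 ± 0.05).

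Genes known to respond to androgens in mouse kidney were the only 1 of the 7 related lists with calls, counted by the brightest element. Among all tested elements 1.01% were called lower in A227T and 1.02% in C93F. In A227T 1 of 4 was called, Odc1, the first enzyme of polyamine synthesis, at -0.83 ± 0.24 (adjusted p 0.00018), while Kap, an abundant proximal tubule transcript, was at -0.36 ± 0.10 (adjusted p 0.0126), Cyp4b1 at -0.03 ± 0.17 and Gusb at -0.01 ± 0.18. Kap turned to 0.13 in A227T with print-tip loess. In C93F 4 of 4 tested genes were lower: Odc1 (-1.12 ± 0.05), Kap (-0.85 ± 0.15), Adh1, alcohol dehydrogenase (-0.53 ± 0.14), and Cyp4b1 (-0.50 ± 0.09), with limma adjusted p from 6.35e-07 to 0.000369. The last 2 are close to the fold threshold, and 2 of the 4 were called without background correction. In the authors' processed ratios 1 of the 4 was called, where 8 of 17960 tested elements were called lower. Odc1 also has elements of unequal size: MG-3-16p4, the brighter in C93F, was at -0.48 ± 0.10 in A227T, and MG-68-104c23, the brighter in A227T, was at -0.20 ± 0.10 in C93F. The list was drawn up with earlier results of these data known, so its count is not independent evidence.

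**Figure D4:**
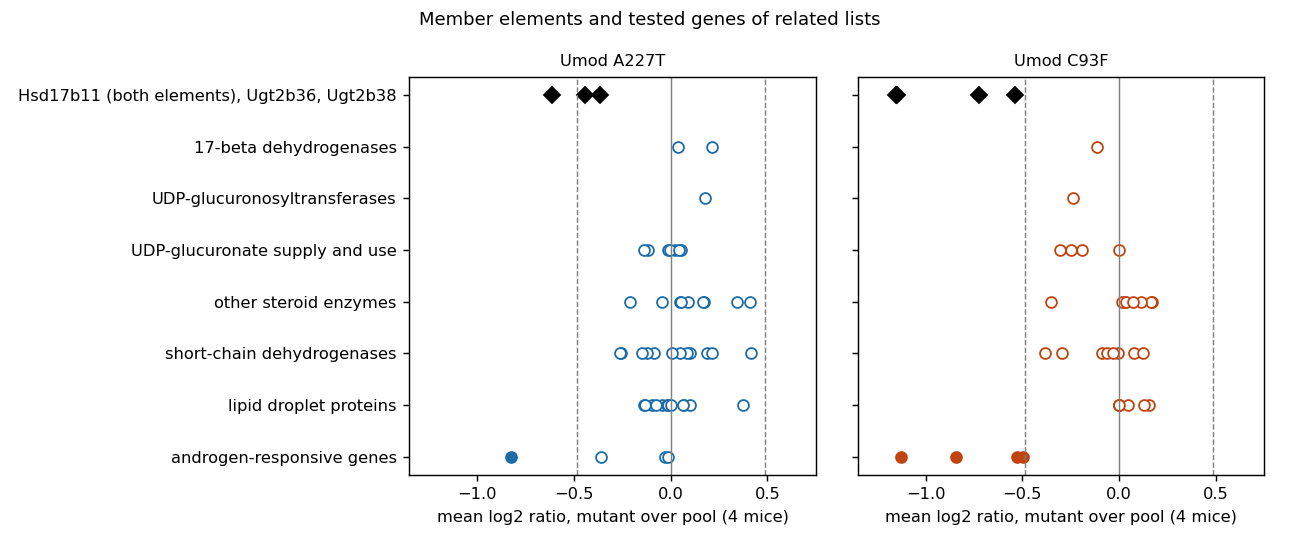
Mean log2 ratio of mutant over pool of the tested member elements (black diamonds) and of the tested genes of 7 related lists, 1 circle per gene by its brightest element, filled where called. A227T is on the left, where Ugt2b38 was not tested, and C93F on the right, where diamonds of MG-6-67i6 and Ugt2b38 overlap at -1.15. Dashed lines are 1.4-fold changes; only the androgen-responsive list holds filled circles.

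Cell type markers moved beside these genes. In A227T 0 of 10 tested markers of proximal tubule segments S1 and S2 (17 in the list) were called (median -0.12), 1 of 6 of S3 was lower, 3 of 5 fibroblast and 2 of 2 adipocyte markers were higher and 3 of 4 red blood cell markers were lower. A liver marker, Ttr, was lower (1 of 3), and no marker of thick ascending limb, distal tubule and collecting duct, podocyte, endothelium or leukocyte was called. By adjusted p alone 3 of 4 leukocyte markers were higher, beside 6.24% of all tested elements. Among all tested A227T elements 1.01% were called lower and 0.803% higher. In C93F 4 of 8 tested markers of S1 and S2 were called lower, namely Dnase1, Slc34a1, Slc22a6 and Slc13a3, beside 1.02% of all tested elements. By adjusted p alone 8 of 8 were lower, beside 14.7% of all tested elements. The median of the list lay between -0.49 and -0.36 in the 4 mice. Of these genes 2 were called with print-tip loess, 2 without background correction and 0 in the authors' processed ratios. In the authors' ratios 8 of 17960 elements tested in C93F were called lower. Markers of segment S3 were not called (0 of 4, median 0.08), nor were those of any other cell type tested in C93F, red blood cells included (0 of 4, median -0.28). By adjusted p alone 3 of 4 red blood cell markers and 2 of 3 thick ascending limb markers, Umod among them, were lower in C93F. Of the S3 markers 1 was lower by that measure, Cyp7b1 (-0.35), and 1 higher, Aadat (0.40). No marker of the adrenal cortex, a steroid-making tissue beside the kidney, passed in enough mice to be tested in either line. Of 8 such markers 4 are named on the array. The part of these shifts in the member ratios was not tested. The marker lists, like the androgen list, were drawn up with earlier results of these data known, so their counts are not independent evidence.

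Profiles across the 8 mice most like each member element were listed by the root mean square difference of the log2 ratios, among 1498 named elements tested in both lines. For MG-6-67i6 these were Odc1 (0.26), Mtor (0.33), Lgmn, a lysosomal protease (0.37), Kap (0.37) and the other Hsd17b11 element (0.39), beside a median difference of 0.965 over all elements. For s1-Dhrs8 they were Inmt, an indolamine methyltransferase (0.18), Acsm2, a medium-chain acyl-CoA synthetase (0.22), Dnase1 (0.22), Kap (0.25) and Pank1, of coenzyme A synthesis (0.26), beside a median of 0.645. For Ugt2b36 they were a second element of Mtor (0.13), Them7 (0.16), Ybx1, an RNA-binding protein (0.17), Tcn2, a cobalamin carrier (0.19), and Slc22a6, the organic anion transporter of proximal tubules (0.19), beside a median of 0.51. Ugt2b38 has no such profile, since it was not tested in A227T. The mice of a line share a pool, so likeness here follows mostly from similar means in the lines. Each profile also includes the C93F ratios on which the members were chosen. Nearness to other elements low in C93F, and distance from the median element, therefore follow from that choice and are not evidence.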

How the data were processed

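The deposited scanner files give foreground and local background intensity of every spot in both channels, before normalization. The name of the scanner software is not given in the sources used here. The array holds 20794 positions, and at 217 of them the clone name differs in the C93F scans, so these were left unnamed there. The authors also deposited processed log2 ratios, one column per mouse, used as an alternative. Their methods filtered spots on signal to noise and on agreement between the dye-swapped arrays. Column medians were 0.00725 to 0.0467, the scale was found to be log2 by comparison with the scans, and the table itself states neither centring nor direction, while the methods define fold change as mutant over wild-type. Scans of C93F mouse 1 matched the authors' column of mouse 2 (r 0.87) and the reverse (r 0.866), against 0.596 and 0.593 for equal numbers, so C93F mouse numbers follow the scans and means are unaffected.

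With R 4.3.3 and limma 3.58.1, intensities were corrected by normexp (offset 50), normalized by loess within arrays, with weight 0 for spots that the scanner software did not find (3100 to 5894 per A227T array, 0 in C93F), turned to mutant over pool, averaged over spots of a clone and over the 2 arrays of a mouse. The offset draws ratios of dim spots toward 0. Each line was fitted alone against 0 with lmFit and eBayes. A mouse whose spot failed the background stayed in the mean of a tested element. The steps were tested on simulated data.

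Members and lists were chosen with earlier results of these data known. Named are all member elements, up to 4 called genes of each list and line, all tested genes of the 17-beta dehydrogenase and UDP-glucuronosyltransferase lists, 5 genes nearest in profile to each member element, Umod and Scd1; members of groups of 5 or fewer were also named, after their values were seen. A gene on several elements is counted by its brightest. Sequences are from RefSeq (GRCm38.p6), where all 3 genes matched; figures were drawn with Python 3.11.15 and matplotlib 3.10.9. Alternatives covered background, normalization, the filter, the authors' ratios, SAM, a dye term and omission of each mouse. The number of arrays limits precision, and p-values measure the spread between mutant mice.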

Additional observations from a re-analysis of the deposited data

Results flagged for a closer look

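In 118 sets of 4 mice looked at (members, list genes and the nearest profiles), 5 held a mouse far from the other 3 by Dixon's ratio at its 95% critical value; chance alone flags about 1 set in 20. MG-11-1e5 of Ugt2b36 in A227T mouse 3 was at 0.018, against -0.54 to -0.45 in the others, and this is the mouse whose spot failed the background on 1 array. Hsd17b11 s1-Dhrs8 in C93F mouse 3 was at -0.87, against -0.69 to -0.66. Acsm2 in A227T mouse 2 was at 0.11, against -0.32 to -0.26, Hsd3b4 in C93F mouse 4 at 0.18, against -0.03 to -0.01, and Bdh1 in C93F mouse 2 at -0.25, against -0.05 to -0.02.

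Of 44 elements measured in both lines, the brighter Hsd11b1 element was lower in all 4 A227T mice (mean -0.21) and higher in all 4 C93F mice (mean 0.11). The difference of the means, A227T minus C93F, was -0.32. This difference was not tested.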

How the results depend on the processing

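All member means stayed negative under every alternative run. The A227T call of MG-6-67i6 was lost without background correction (-0.45), with local background subtraction (-1.04, adjusted p 0.14), in the authors' processed ratios (-0.40) and over mice whose spots passed (-0.43, an alternative chosen after seeing the data); it ranged from -0.73 to -0.43 with 1 mouse left out. s1-Dhrs8 in A227T would be called in the authors' ratios (-0.54), with a range of -0.58 to -0.36 and an adjusted p up to 0.109 with 1 mouse left out. Ugt2b36 in A227T would be called in the authors' ratios (-0.54) and over mice that passed (-0.49), with a range of -0.49 to -0.31 and an adjusted p up to 0.17. Its adjusted p was 0.112 with local subtraction and 0.123 without a filter on dim spots, where Ugt2b38 in A227T was tested at -0.14 (adjusted p 0.618). With subtraction the untested mean of Ugt2b38 in A227T was -0.72.

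In C93F the means moved by more than 1 SD for MG-6-67i6 without correction (-0.98), with subtraction (-1.42) and in the authors' ratios (-1.30), for s1-Dhrs8 (-0.62, -0.93 and -0.96 in the same order), for Ugt2b36 (-0.44, which ends its call, -0.73 and -0.67) and for Ugt2b38 with median centring (-1.28). With 1 mouse left out, the ranges were -1.18 to -1.12, -0.74 to -0.68, -0.57 to -0.50 and -1.19 to -1.10. Whether the members kept their calls in the authors' ratios, where 8 of 17960 elements were called lower, is not given here.

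In A227T, calls lower numbered 59 with median centring, and calls higher 142 with it, 159 with subtraction and 139 in the authors' ratios; with 1 mouse left out they were 78 to 110 lower and 73 to 93 higher. In C93F, calls lower numbered 22 without correction, 67 with subtraction and 8 in the authors' ratios, where 17960 elements were tested, and calls higher 7 with subtraction and 0 with 2 times background required in both channels; with 1 mouse left out they were 33 to 37 lower and 1 to 3 higher. Signs changed for Hsd17b4 in A227T (-0.010 to 0.065 with 1 mouse left out), Kap in A227T with print-tip loess (0.13), and Umod in A227T with median centring (0.072) and in the authors' ratios (0.0065). The causes were not tested. No paired analysis was possible because each line was compared with its own single pool, and equal mouse numbers name mice of different lines. Requiring 2 times background in both channels left Ugt2b36 untested in C93F, so that alternative has no value for it. A batch term was not run, since the files used here give no slide or scan batch. Dim spots limit what can be said of Ugt2b38 in A227T.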
